A study of Mus musculus with 6 samples.

Results

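The chemokine genes of the intestinal epithelium were examined as 9 genes chosen by symbol, Ccl25, Ccl28, Ccl20, Ccl6, Cxcl16, Cx3cl1, Cxcl1, Cxcl9 and Cxcl10. All 9 were found by symbol among the 55335 genes of the deposited count table, and 6 of the 9 held enough counts to be tested among 14107 genes. RNA was sequenced from intestinal tissue of 3 mice labelled Trmt6-/- and 3 wild-type (WT) mice, all with colitis from dextran sulfate sodium (DSS), which damages the epithelial lining. The Trmt6 protein pairs with Trmt61a, which carries the active site, to methylate adenosine in tRNA. The labels give no strain, sex, age, intestinal segment, DSS dose or cell type of the deletion, and no mice without DSS were analysed here. The animals labelled Trmt6-/- gave the KO-labelled libraries KO72, KO73, KO75 and the WT animals gave WT185, WT186, WT187, and values per library follow these orders.

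Trmt6 transcript was not lower in the KO-labelled libraries, at 39.8, 34.2 and 36.2 CPM (counts scaled to library size) in the KO-labelled libraries, against 30.9, 18.7 and 23.1 CPM in the WT libraries. Its log2 fold change was 0.60 ± 0.21 (SE; adjusted p = 0.335, edgeR), so every direction below rests on the labels. Depth ran from 15213972 to 16972758 counts per library, and the 9 chemokine genes took 0.0663% to 0.0838% of them. The tissue label was matched by epithelial genes. The 8 epithelial markers (Epcam, Cdh1, Vil1, Krt8, Krt18, Krt19, Krt20, Cldn7) summed to 11940 to 14837 CPM in the KO-labelled libraries and 11241 to 12587 CPM in WT. Lymphocyte markers and Cd74 reached higher levels and are given beside the results they touch, and stromal and B cell markers were below 10 CPM in sum. Summed marker levels ran from 2.31 to 8.38 CPM against 5.75 to 7.57 CPM in WT for 6 fibroblast genes, and from 1.92 to 4.54 CPM against 1.36 to 2.82 CPM in WT for 5 endothelial genes. For 7 B and plasma cell genes they ran from 5.02 to 7.05 CPM against 4.50 to 6.53 CPM in WT. Of the colon markers, Hoxb13 and Hoxd13 had 0 counts in all 6 libraries.

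Chemokines are small secreted proteins that guide leukocytes by binding receptors on their surface. The CC, CXC and CX3C classes are named for the spacing of their first cysteines. In the intestine, Ccl25 and its receptor Ccr9 draw T cells to the small bowel, Ccl28 and Ccr10 draw IgA-secreting plasma cells, and Ccl20 and Ccr6 draw cells to lymphoid follicles. Cxcl16 and Cx3cl1 are made as membrane-anchored proteins that ADAM proteases can release. Cxcl1 is a neutrophil attractant induced through NF-kappaB, and Cxcl9 and Cxcl10 are interferon-induced attractants of Cxcr3-bearing T cells.

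With edgeR, 0 of the 9 chemokine genes passed an adjusted p of 0.05. Over all 14107 genes tested, 6 passed (0.0425%), 5 of them higher (0.0354%) and 1 lower (0.00709%) in the KO-labelled libraries. Of the 6 chemokine genes tested, 1 was higher (Cxcl16) and 1 lower (Ccl20) in the KO-labelled libraries at an unadjusted p below 0.05, where 12.1% of all genes tested lay (6.15% higher and 5.94% lower). Cxcl16 separated the groups without overlap, as did 18.7% of all genes tested in either direction, 9.7% with the KO-labelled libraries higher and 9.03% with them lower. The median log2 fold change was 0.16 over the 6 chemokine genes and -0.03 over all genes tested. Cxcl1, Cxcl9 and Cxcl10 fell below the low-count filter and are given as raw counts. In bulk tissue, fewer cells of a type and less RNA per cell cannot be told apart.

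**Figure D1:**
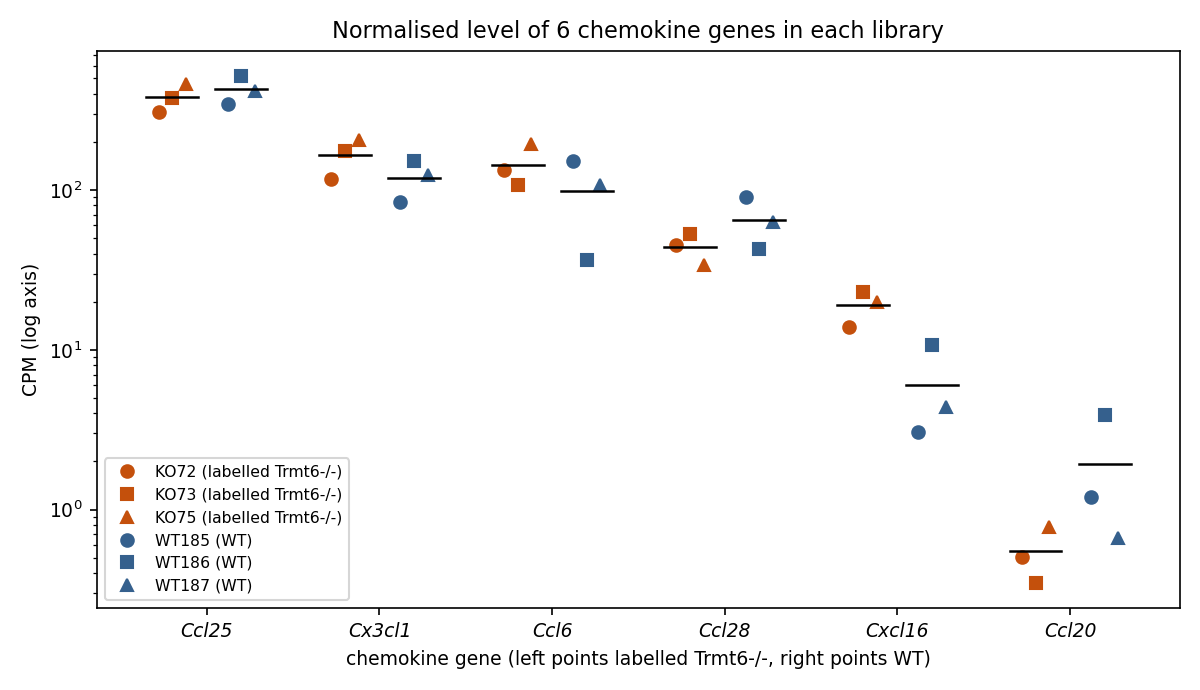
Normalised level (CPM, log axis) of the 6 tested chemokine genes in each of the 6 libraries, with KO-labelled libraries left of WT for every gene. Symbols are single libraries and bars are group means. Cxcl16 is the one gene whose groups do not overlap, from 13.8 to 23.05 CPM against 3.07 to 10.7 CPM in WT.

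Ccl25, the ligand of Ccr9 on gut-homing T cells, was the most abundant of the 9 by counts. The gene (ENSMUSG00000023235.14; GRCm38 chromosome 8, 4325210 to 4360020, plus strand) was counted at 307.9, 375.3 and 462.9 CPM in the KO-labelled libraries, against 343.1, 516.7 and 419.1 CPM in the WT libraries. The groups overlapped, with KO72 lowest and WT186 highest of the 6. The log2 fold change was -0.16 ± 0.24 (SE, edgeR; adjusted p = 0.855) with a 95% interval of -0.73 to 0.41, a fold of 0.605 to 1.33. Ccl25 was also the steadiest of the 6 tested, its highest library being 1.68 times its lowest. Its sign was not settled. The value was 0.017 without WT186 and 0.23 with an index of ileal minus proximal small intestinal markers as covariate. That index ran with genotype in part, at 0.616, -0.998 and -4.10 in the KO-labelled libraries, against -1.79, -7.89 and -6.23 in the WT libraries. Values with this regional covariate, here and below, therefore cannot separate region from genotype. Of its 7445 exon bases, 204 are shared with Elavl1 on the opposite strand, where unstranded counting leaves reads uncounted.

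Levels of different genes can be compared only per length, and for Ccl25 the length decides the order. Per union of all annotated exons, Ccl6 was the highest of the 9 in 5 of 6 libraries and Ccl25 in 1. Ccl25 averaged 154 ± 16.7 TPM (reads per exon base, scaled to a common total per library) in the KO-labelled libraries and 194 ± 23.4 TPM in WT, and Ccl6 averaged 243 ± 66.9 and 195 ± 125 TPM (SD, n = 3 each). The longest protein-coding Ccl25 transcript has 1058 bases, while that of Ccl6 has 1440 of 1795 exon bases. With these transcript lengths, an alternative chosen after seeing the data, Ccl25 stood at 1084 ± 117 and 1367 ± 165 and was the highest in 6 of 6 libraries. Ccl6 then stood at 303 ± 83.4 and 243 ± 156. The lengths were changed for the 9 genes only, without rescaling to the common total. These values therefore give the order among the 9 and are not TPM levels. The rest of the order did not depend on this choice, with Cx3cl1 above Ccl28, Ccl28 above Cxcl16 and Cxcl16 above Ccl20 in each group mean. Cxcl16 and Ccl20 did not stand apart beyond their spread in WT, at 6.604 ± 3.83 and 4.39 ± 3.59 TPM per union of exons.

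**Figure D2:**
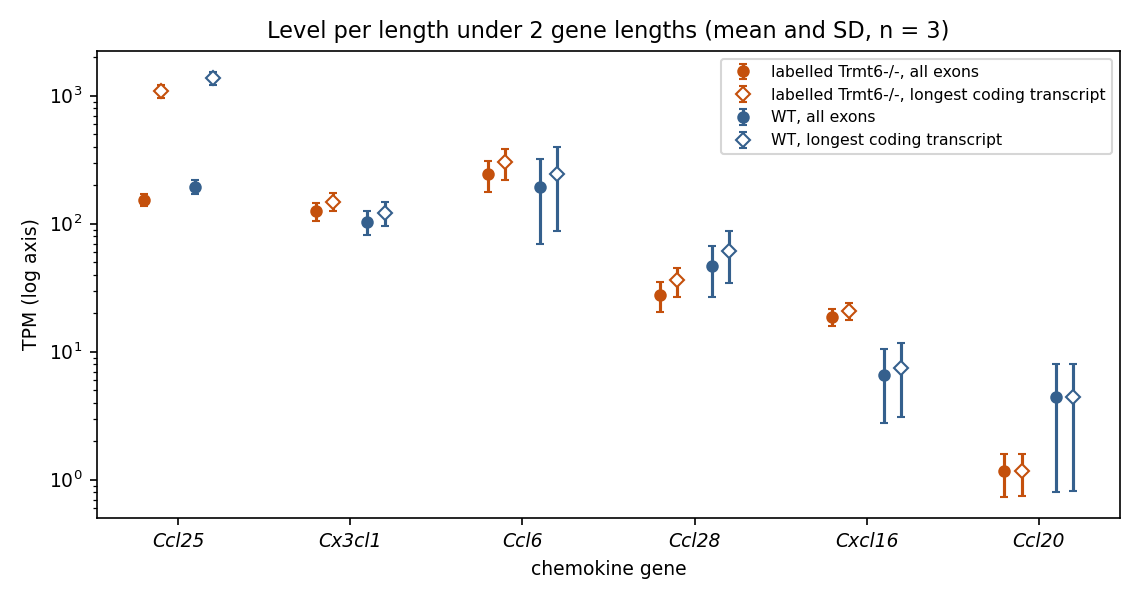
Level per length (TPM, log axis) of the 6 tested chemokine genes, as mean and SD over 3 libraries, with the KO-labelled libraries left of WT. Filled circles use all annotated exon bases and open diamonds the longest protein-coding transcript. The diamonds were not rescaled to a common total and serve only to order the genes. Ccl25 moves most, to 1084 in the KO-labelled libraries and 1367 in WT.

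The receptor of Ccl25 was far more variable than the ligand. Ccr9 was counted at 4.40, 9.43 and 23.4 CPM in the KO-labelled libraries, against 8.18, 6.96 and 18.3 CPM in the WT libraries (log2 fold change 0.15 ± 0.65, adjusted p = 0.959). KO75 and WT187 were high and KO72 was low, while Ccl25 was likewise lowest in KO72 but highest in WT186. The same 2 libraries were high for Cxcr6, the receptor of Cxcl16 (0.85, 2.44 and 8.18 CPM against 1.72, 3.82 and 5.81 CPM in WT), and for Cxcr3 (0.62, 1.47 and 4.77 CPM against 1.88, 1.02 and 3.24 CPM in WT). They were also those with most RNA of intraepithelial lymphocytes, whose 8 markers summed to 99.3, 252 and 786 CPM in the KO-labelled libraries, against 277, 407 and 1019 CPM in the WT libraries. Ccr10, the receptor of Ccl28, and the scavenging receptor Ackr4 were the other 2 tested, at group means of 0.562 and 1.36 CPM in the KO-labelled libraries and 0.621 and 1.98 CPM in WT. Of 14 receptors and decoys, 5 were tested. Of these 5, 0 passed before or after adjustment, where 12.1% and 0.0425% of all genes tested did. Their median log2 fold change was 0.01 (0.63 with the regional covariate, -0.68 without KO75). The part of lymphocyte content in these values was not tested. Ccr6, Cx3cr1, Ccr1 and Ccr3 lay below the filter, Cxcr2 had 2 counts in all and Cxcr1 had 0.

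Genes listed for the epithelial control of Ccl25, most of them transcription factors, were measured beside it. Of these 8 genes none passed after adjustment, with a median log2 fold change of -0.03. At an unadjusted p below 0.05, 1 was higher (Tcf7l2) and 1 lower (Gata4), where 6.15% and 5.94% of all genes tested lay. Cdx2, a caudal-type factor known to drive Ccl25 transcription in small intestinal epithelium, stood at 216 ± 22.0 CPM in the KO-labelled libraries and 199.5 ± 8.34 CPM in WT. Gata4, a factor of the proximal small intestine, stood at 116 ± 28.9 against 214 ± 57.5 CPM in WT (log2 fold change -0.89 ± 0.28, adjusted p = 0.281), Tcf7l2 at 74.2 ± 13.7 against 50.1 ± 8.96 CPM (0.57 ± 0.20, adjusted p = 0.342) and Hnf4g at 309 ± 15.7 against 516 ± 253 CPM (-0.74 ± 0.36, adjusted p = 0.495). Regional identity was not uniform within either group. The 4 ileal markers summed to 832, 641 and 179 CPM in the KO-labelled libraries, against 813, 59.8 and 35.6 CPM in the WT libraries, and their part in the chemokine values was not tested beyond the covariate.

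Ccl28, the mucosal ligand of Ccr10, was lower on average in the KO-labelled libraries without passing the test. The gene (ENSMUSG00000074715.3; chromosome 13, 119623819 to 119654359, plus strand) stood at 45.3, 52.7 and 33.9 CPM in the KO-labelled libraries, against 89.9, 42.4 and 63.0 CPM in the WT libraries. WT186 lay within the values of the KO-labelled libraries, so the groups overlapped. The log2 fold change was -0.57 ± 0.30 (95% interval -1.27 to 0.14, adjusted p = 0.530). It ran from -1.06 with the regional covariate to -0.24 without WT185, below 0 in 15 of 15 alternatives.

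Ccl6, a CC chemokine of rodents that acts through Ccr1, did not pass the test and had 1 low library. The gene (ENSMUSG00000018927.3; chromosome 11, 83587882 to 83593087, minus strand) stood at 133, 107 and 193 CPM in the KO-labelled libraries, against 153, 36.2 and 107 CPM in the WT libraries. Only WT186 was low, and the other 5 libraries overlapped. The log2 fold change was 0.55 ± 0.50 (95% interval -0.63 to 1.72, adjusted p = 0.743) and 0.16 without WT186. The 6 crypt base markers summed to 3109 to 5729 CPM in the KO-labelled libraries and 1156 to 8000 CPM in WT. The Paneth cell genes among them, Lyz1, Defa24 and Mmp7, were lowest in WT186, while the stem cell genes Lgr5, Olfm4 and Ascl2 were lowest in KO75, where Ccl6 was highest. Mmp7, the protease that activates defensins, stood at 176, 105 and 165 CPM in the KO-labelled libraries, against 159, 11.7 and 55.3 CPM in the WT libraries. The part of Paneth cell RNA in the Ccl6 values was not tested. The 5 eosinophil genes summed to 2.28 to 5.19 CPM in the KO-labelled libraries and 5.002 to 6.05 CPM in WT, mostly Siglecf, the one of them tested.

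Among 9954 genes of at least 5 CPM, the gene whose profile over the 6 libraries was nearest to that of Ccl6 was Spink4, a secreted trypsin-inhibitor-like protein of goblet cells. The root mean square difference of their centred log2 CPM was 0.107, where Ccl6 itself varied with an SD of 0.767. Spink4 stood at 212, 149.7 and 276 CPM in the KO-labelled libraries, against 207, 53.6 and 134 CPM in the WT libraries. Adgre5 came next at 0.216. For Ccl25 the nearest were Ccdc32 (0.0312) and Tepsin (0.0369), and for Cx3cl1 Frk (0.0252) and Map3k2 (0.0512). They were Etaa1 (0.124) and Trim65 (0.132) for Ccl28, Rdh16 (0.256) and Trib3 (0.299) for Cxcl16, and Itpr1 (0.344) and Ugt2b36 (0.388) for Ccl20. The search describes 6 libraries only.

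**Figure D3:**
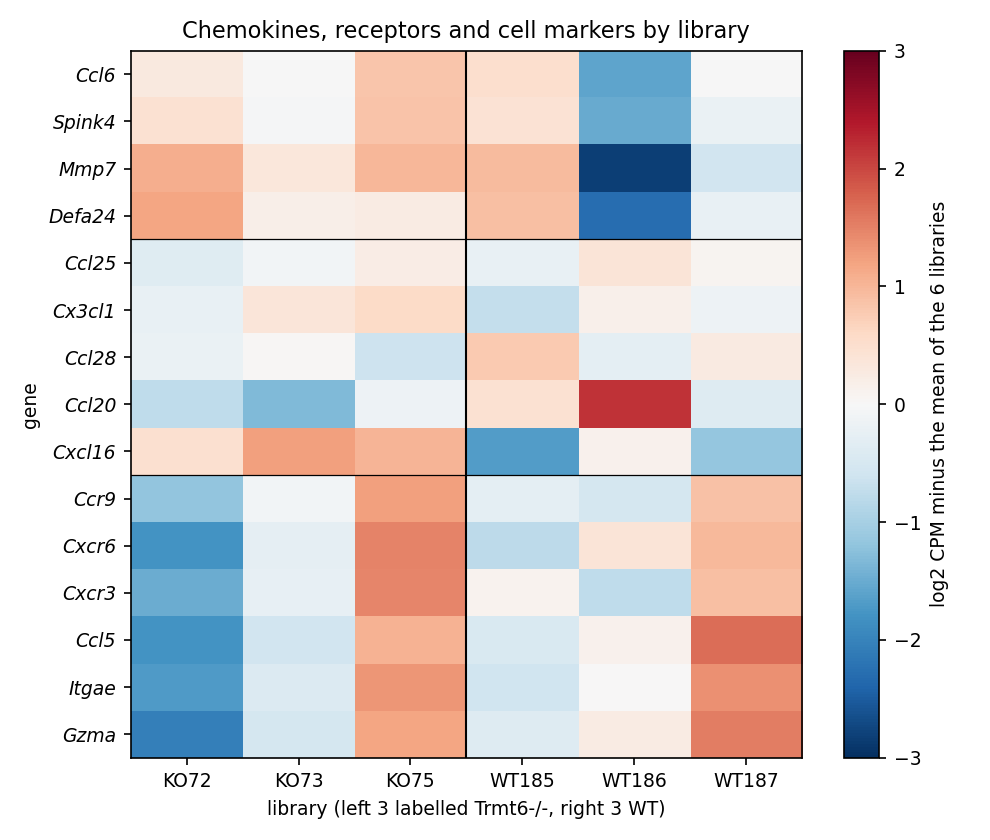
Centred log2 CPM of chemokine genes, receptors and cell markers (rows) in the 6 libraries (columns, labelled Trmt6-/- left of WT). Ccl6, Spink4, Mmp7 and Defa24 share a low value in WT186, and Ccr9, Cxcr6, Cxcr3, Ccl5, Itgae and Gzma share high values in KO75 and WT187 and their lowest in KO72.

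Cxcl16, a membrane-anchored CXC chemokine that attracts Cxcr6-bearing T cells and also takes up oxidised lipoprotein, had the lowest p of the 6. The gene (ENSMUSG00000018920.11; chromosome 11, 70453983 to 70459984, minus strand) stood at 13.8, 23.05 and 19.9 CPM in the KO-labelled libraries, against 3.07, 10.7 and 4.38 CPM in the WT libraries. Every KO-labelled library lay above every WT library, with KO72 the lowest of its group and WT186 the highest of its own. The log2 fold change was 1.65 ± 0.49 (95% interval 0.49 to 2.81; unadjusted p = 0.0121, adjusted p = 0.272, edgeR). It kept its sign under 15 of 15 alternatives, from 1.35 to 2.58 with adjusted p from 0.0354 to 0.683. Because the groups were separate, leaving out 1 library could hardly have turned the sign. The threshold was passed with DESeq2 alone (adjusted p = 0.0354). Without WT186 the log2 fold change was 2.36. Of its 3021 exon bases 552 (18.3%) are shared with Zmynd15 on the opposite strand, and reads there are left out by unstranded counting. Zmynd15 itself had 16, 18 and 21 counts in the KO-labelled libraries, against 3, 10 and 6 in the WT libraries.

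Cx3cl1, the membrane-anchored ligand of Cx3cr1 on intestinal macrophages, was abundant in all 6 libraries. The gene (ENSMUSG00000031778.13; chromosome 8, 94772009 to 94782427, plus strand) stood at 117, 175.5 and 205 CPM in the KO-labelled libraries, against 84.0, 152 and 123 CPM in the WT libraries. The groups overlapped, with KO75 highest and WT185 lowest. The log2 fold change was 0.47 ± 0.29 (95% interval -0.22 to 1.15, adjusted p = 0.597), and 1.03 with the regional covariate (adjusted p = 0.0731). Its receptor Cx3cr1 had 7, 13 and 7 counts in the KO-labelled libraries, against 3, 3 and 12 in the WT libraries. Of the 9 macrophage and dendritic cell genes measured, 6 were tested and 0 passed after adjustment.

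Of 6 peptidase genes that process or release chemokines, 0 passed after adjustment, with a median log2 fold change of 0.30. At an unadjusted p below 0.05, 1 was higher (Adam10) and 1 lower (Mme), where 6.15% and 5.94% of all genes tested lay. Adam10, the main protease releasing Cxcl16 and Cx3cl1 from resting cells, stood at 184 ± 8.29 CPM in the KO-labelled libraries and 146 ± 9.12 CPM in WT (0.33 ± 0.14, adjusted p = 0.402). Adam17, which releases both on stimulation, stood at 40.8 ± 3.25 against 45.9 ± 0.987 CPM in WT (-0.17 ± 0.13, adjusted p = 0.683). Adam10 was higher, and Adam17 and Mme lower, without overlap between the groups (18.7% of all genes tested did not overlap). Dpp4, a brush border dipeptidyl peptidase that trims several chemokines including Cxcl10, stood at 1258 ± 343 against 795 ± 287 CPM in WT (0.66 ± 0.37, adjusted p = 0.555). Mme, the neutral endopeptidase neprilysin, stood at 315.5 ± 90.4 against 1299 ± 1032 CPM in WT (-2.04 ± 0.60, adjusted p = 0.269).

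**Figure D4:**
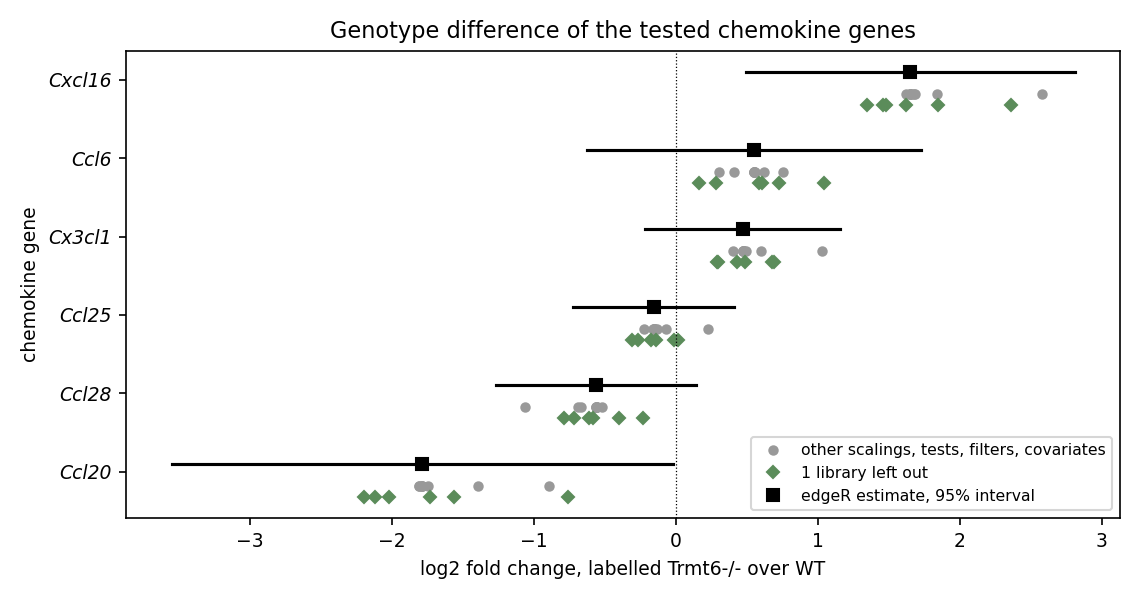
Log2 fold change of the 6 tested chemokine genes, labelled Trmt6-/- over WT. Black squares and lines are edgeR estimates with 95% intervals, grey points other scalings, tests, filters and covariates, and green diamonds fits with 1 library left out. Cxcl16 stays above 0 throughout and Ccl25 lies on both sides of 0.

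Ccl20, which follicle-associated epithelium makes to attract Ccr6-bearing cells, was close to the detection limit. The gene (ENSMUSG00000026166.14; chromosome 1, 83116766 to 83119167, plus strand) had 9, 5 and 11 counts in the KO-labelled libraries, against 23, 57 and 11 in the WT libraries. KO75 and WT187 had the same number of counts, so the groups overlapped, and WT186 held most of the WT counts. With edgeR it came to -1.79 ± 0.75 on the log2 scale (95% interval -3.55 to -0.02, unadjusted p = 0.0480, adjusted p = 0.409). Without WT186 it was -0.76, the nearest to 0 of 14 alternatives, all of them below 0. Under the stricter filter of 1 CPM in 3 libraries it was not tested.

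Cxcl1 was counted in every KO-labelled library and in no WT library, at very low numbers. The gene (ENSMUSG00000029380.11; chromosome 5, 90891241 to 90893115, plus strand) had 1, 5 and 11 counts in the KO-labelled libraries and 0 in each WT library. Scaled to library size, the 17 counts came to 6.21 times a nominal floor of 3 counts over the WT group. The exact (Clopper-Pearson) 95% lower limit of the ratio to WT, for counting error only, was 4.52. Without KO75, 6 counts remained. An exact two-sided permutation test gave p = 0.1, the smallest that 3 against 3 libraries allow. Of 7 neutrophil markers, 0 were abundant enough to test. S100a8 had 1, 8 and 48 counts in the KO-labelled libraries, S100a9 had 1, 23 and 31, and both had 0 in each WT library. Csf3r, with 6, 6 and 8 counts against 6, 2 and 6 in WT, and Retnlg, with 7, 4 and 33 against 0, 0 and 10 in WT, overlapped between the groups. The summed level of the 7 markers ran from 0.903 to 9.68 CPM in the KO-labelled libraries and from 0.205 to 0.959 CPM in WT, Mpo was at 0 in all 6, and the part of neutrophils in the Cxcl1 counts was not tested. The related neutrophil attractant Cxcl2 did not share the pattern, with 1, 4 and 12 counts in the KO-labelled libraries, against 9, 6 and 16 in the WT libraries.

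Cxcl9 and Cxcl10, neighbours on chromosome 5, leaned the other way. Cxcl9 (ENSMUSG00000029417.9; 92321347 to 92328079, minus strand) had 2, 1 and 3 counts in the KO-labelled libraries, against 6, 12 and 15 in the WT libraries. The groups did not overlap, and the exact two-sided permutation test again gave the smallest possible p = 0.1. The ratio of normalised sums, 6 counts against 33, was 0.199 with an exact (Clopper-Pearson) 95% interval of 0.0683 to 0.482. Cxcl10 (ENSMUSG00000034855.13; 92346638 to 92348889, minus strand) had 1, 0 and 5 counts in the KO-labelled libraries, against 8, 5 and 15 in the WT libraries. KO75 and WT186 overlapped (exact two-sided permutation p = 0.2), and the ratio of 6 counts against 28 was 0.235 with an interval of 0.0795 to 0.578. These intervals cover counting error only. Left-out libraries moved the Cxcl9 ratio between 0.143 and 0.245 and the Cxcl10 ratio between 0.0563 without KO75 and 0.341 without KO73. When edgeR was run without the low-count filter, adjusted p was 0.272 for Cxcl1, 0.414 for Cxcl9 and 0.688 for Cxcl10. Marker sums of T cells and of macrophages overlapped between the groups. The 10 T and NK cell genes summed to 81.3 to 703 CPM in the KO-labelled libraries and 257 to 971 CPM in WT, and the 9 macrophage and dendritic cell genes to 361 to 757 CPM in the KO-labelled libraries and 735 to 1931 CPM in WT. Cd74, the MHC class II invariant chain gene, made up most of the second sum, at 353 to 750.4 CPM in the KO-labelled libraries and 725 to 1896 CPM in WT. Their part in the Cxcl9 and Cxcl10 counts was not tested. Cxcl10 shares 133 of its exon bases with Art3 on the opposite strand.

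**Figure D5:**
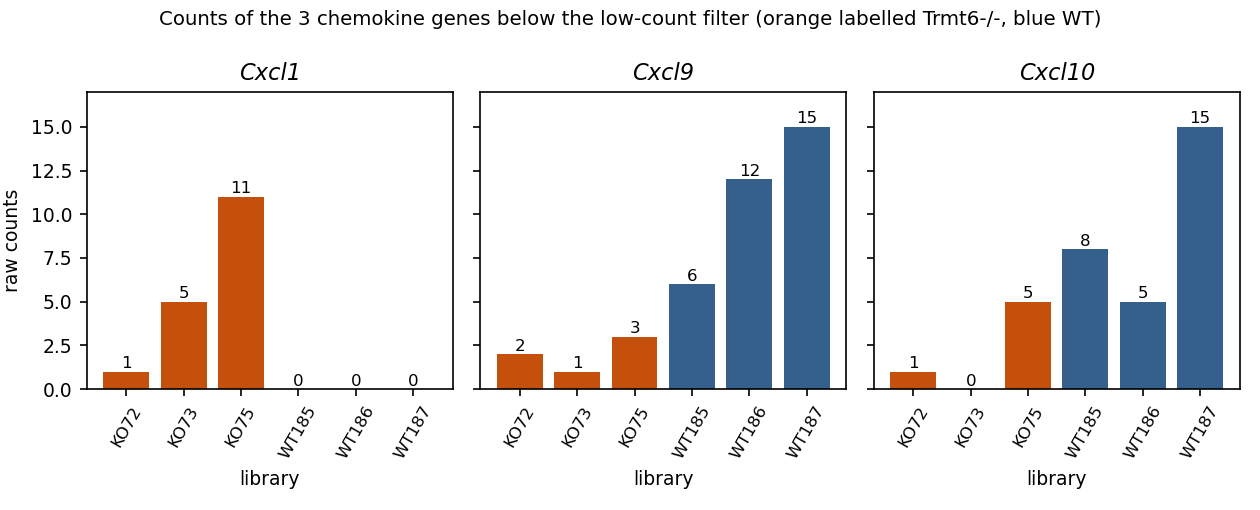
Raw counts of Cxcl1, Cxcl9 and Cxcl10 in each library, with the KO-labelled libraries in orange left of WT in blue. Cxcl1 has 17 counts against 0 in WT, Cxcl9 has 6 against 33 and Cxcl10 has 6 against 28.

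The promoters of these 3 genes are shown because their counts lay in opposite directions between the groups. Each runs from 250 bases before to 50 after the RefSeq start (GRCm38.p6, written along the gene's strand), at chr5:90890995-90891294 for Cxcl1, chr5:92328030-92328329 for Cxcl9 and chr5:92348840-92349139 for Cxcl10. Capitals mark matches on either strand to the NF-kappaB consensus, or to GAAA repeated after any pair of bases, the core of the interferon-stimulated response element.
Cxcl1: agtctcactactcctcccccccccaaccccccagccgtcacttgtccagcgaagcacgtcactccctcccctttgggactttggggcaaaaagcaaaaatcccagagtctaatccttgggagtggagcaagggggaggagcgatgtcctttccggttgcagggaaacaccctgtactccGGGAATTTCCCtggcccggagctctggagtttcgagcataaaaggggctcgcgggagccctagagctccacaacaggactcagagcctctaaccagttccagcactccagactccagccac
Cxcl9: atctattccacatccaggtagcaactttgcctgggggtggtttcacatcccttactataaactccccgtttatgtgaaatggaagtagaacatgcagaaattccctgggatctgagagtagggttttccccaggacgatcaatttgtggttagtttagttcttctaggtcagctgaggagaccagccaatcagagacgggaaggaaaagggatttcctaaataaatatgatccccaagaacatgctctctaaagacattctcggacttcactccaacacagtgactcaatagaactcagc
Cxcl10: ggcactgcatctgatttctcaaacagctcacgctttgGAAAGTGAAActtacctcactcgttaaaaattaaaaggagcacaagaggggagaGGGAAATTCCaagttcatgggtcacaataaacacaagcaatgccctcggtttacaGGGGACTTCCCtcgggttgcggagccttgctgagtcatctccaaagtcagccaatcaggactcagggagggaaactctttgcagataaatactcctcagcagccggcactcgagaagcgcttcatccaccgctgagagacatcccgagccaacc
Cxcl1 held overlapping NF-kappaB matches from position -71, counted back from the start. Cxcl10 held GAAAGTGAAA at -213, GGGAAATTCC at -159 and overlapping NF-kappaB matches from -104. No match to either motif was found in the Cxcl9 window. Of 32851 promoter windows of this length, 8.46% held the NF-kappaB consensus and 3.44% the GAAA repeat. A further pattern, TTCNNNGAA (N any base), was also searched. It had no match in any of the chemokine gene windows, while 8.3% of all windows held it. Windows for 8 of the 9 chemokine genes were in the table, and beyond these 3 the Ccl20 window held 1 NF-kappaB match at -80. A match describes letters and not a bound site.

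Genes of the signalling arm behind Cxcl1 and Ccl20 were abundant enough to test in 17 of 19 cases. None passed after adjustment. At an unadjusted p below 0.05, 3 were higher and 0 lower in the KO-labelled libraries, where 6.15% and 5.94% of all genes tested lay. The median log2 fold change was 0.26, against -0.03 over all genes, with 15 of the 17 above 0 and 2 below. Those below were Nfkb1 (-0.20 ± 0.13, adjusted p = 0.623, edgeR) and Nfkbiz (-0.66 ± 0.39, adjusted p = 0.582, edgeR). The 17 genes were measured in the same libraries, so their signs are not independent of each other. Traf6, the ubiquitin ligase shared by interleukin-1, interleukin-17 and Toll-like receptors, stood at 66.4 ± 7.21 CPM in the KO-labelled libraries and 34.6 ± 5.16 CPM in WT (0.94 ± 0.17, unadjusted p = 0.000819, adjusted p = 0.138). Relb, a subunit of the non-canonical pathway, stood at 91.7 ± 13.8 against 69.2 ± 7.12 CPM in WT (0.41 ± 0.16, adjusted p = 0.391). Myd88, the Toll-like receptor adaptor, stood at 34.9 ± 7.37 against 25.2 ± 2.58 CPM in WT (0.47 ± 0.19, adjusted p = 0.406).

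Ifng, the cytokine that induces Cxcl9 and Cxcl10, had 3, 0 and 3 counts in the KO-labelled libraries, against 0, 0 and 30 in the WT libraries. Cxcl11, the remaining Cxcr3 ligand, had 30, 40 and 46 counts in the KO-labelled libraries, against 42, 139 and 86 in the WT libraries (-1.11 ± 0.57, adjusted p = 0.517). Cxcl11 was named after its values were seen.

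Outside these 9, the table held 29 further Ccl, Cxcl and Xcl genes, of which 7 were tested. Of these 7, 0 passed before or after adjustment, where 12.1% and 0.0425% of all genes tested did. The median log2 fold change of the 7 was -0.29, with -1.78 without KO75, 0.05 without KO73 and 0.15 with the regional covariate. For 20 of the 29 no library reached 10 counts, and 9 had 0 counts throughout. Ccl5, which intraepithelial T cells make in quantity, was the most abundant at 17.8, 41.7 and 127 CPM in the KO-labelled libraries, against 45.0, 67.2 and 199 CPM in the WT libraries, highest in the libraries with most lymphocyte RNA. Ccl9, the chromosomal neighbour of Ccl6, stood at 20.99, 11.04 and 21.8 CPM and, in WT, at 34.9, 9.69 and 17.2 CPM (-0.20 ± 0.49, adjusted p = 0.921). Like Ccl6 it was lowest in WT186 among the WT libraries.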

How the data were processed

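Raw counts per gene were deposited, which the authors made, per the file headers, with featureCounts 2.0.1 on paired reads, exons and GENCODE M23. Its header sets no strand option, so counting was unstranded and reads in several genes were left out. The submitters' processing notes name fastp, HISAT2 and mm10, without versions. The deposited gene length column (unit: other) gave TPM. Column names give the group and a number that matches no replicate label. The series design gives 3 mice per group, and p-values measure the spread between these libraries. Symbols came from GENCODE M21, which matched 55154 of 55335 identifiers.

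After filterByExpr and TMM scaling, edgeR 4.0.16 (R 4.3.3) fitted a quasi-likelihood model per gene, tested by F, two-sided, genotype as the only term, Benjamini-Hochberg adjusted over 14107 genes at 0.05. The procedure was tested on simulated counts with less spread between replicates than in these data, so its performance here was not measured. SE is the log2 fold change divided by the square root of F, and SD is over 3 libraries. Within groups, log2 CPM correlated at 0.933 to 0.973, and chi-square per degree of freedom of 48.6 to 209 showed no duplicated library. Intervals of log2 fold changes include the spread between libraries, while the Clopper-Pearson intervals of count ratios cover counting error only, without molecular identifiers.

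The chemokine genes and lists were chosen with earlier results of these data known. From each list, genes past the threshold, or else up to 3 of at least 5 CPM with the smallest p, were named, plus every tested receptor. Others were named after their values were seen. The genes of 1 list are mostly not reported here. Alternatives were other scalings, DESeq2 1.42.0, limma-voom 3.58.1, other filters, regional and leukocyte covariates and left-out libraries.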

Additional observations from a re-analysis of the deposited data

How the results depend on the processing

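No paired analysis was possible because the columns carry no replicate numbers. The count of called genes, 6 of 14107, was 0 with library totals, limma-voom or the regional index, 1 with the leukocyte index, 159 without a low-count filter, 627 with DESeq2, and 0 to 6 with 1 library left out (0 without KO73, KO75, WT186 or WT187). Chemokine genes called stayed at 0 in 14 of 15 alternatives and came to 1, Cxcl16, with DESeq2. The 2643 tested genes whose groups did not overlap became 3473 to 4685 when 1 library was left out, since fewer libraries overlap less often. The 3 chemokine genes (Cxcl1, Cxcl9, Cxcl16) became 3 to 5. Of these 3 only Cxcl16 was tested, so they cannot be set against the 18.7% of tested genes. Over all genes with at least 1 count, 3540 did not overlap. Ccl25 was the one tested chemokine gene whose sign turned, to 0.23 with the regional index and 0.017 without WT186 (range of left-out libraries -0.31 to 0.017); the cause was not tested. List calls stayed at 0 except with DESeq2 (1 peptidase, 1 NF-kappaB gene), for the lists reported. At this depth Cxcl1, Cxcl9 and Cxcl10 had at most 15 counts in a library.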

Other observations

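Ccl24, an eosinophil attractant outside the 9 genes, was counted mostly in WT186. It had 2, 1 and 3 counts in the KO-labelled libraries, against 1, 57 and 16 in the WT libraries. Aqp8, a water channel gene of the colon list, stood at 0.282, 0.698 and 0 CPM in the KO-labelled libraries, against 8.02, 54.5 and 0.959 CPM in the WT libraries. WT186 was the highest library for both genes.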
